A study of Mus musculus with 21 samples.

Results

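The 10 genes described here encode enzymes that detoxify reactive oxygen species or rebuild the reducing power needed for it, together with 1 oxidase that makes hydrogen peroxide: Nqo1, Gclc, Gclm, Txnrd1, Srxn1, Cat, Sod2, Gpx1, Gpx3 and Nox4. They were taken by symbol, and all 10 were found among the 55450 genes of the count table. RNA had been sequenced from the left ventricle of 21 male mice of strain 129S6/SvEv that were 12 weeks old, in 4 groups. The WT-CD group (n = 5) held wild-type littermates on a control diet, and the R403Q-CD group (n = 7) held mice heterozygous for R403Q on that diet. The R403Q-EMPA (n = 4) and WT-EMPA (n = 5) groups ate the same diet with empagliflozin (EMPA) at 0.15 mg per g of diet, about 15 mg per kg of body weight, from an age of 9 to 10 weeks. R403Q is a missense mutation in Myh6, the gene of the α-myosin heavy chain of cardiomyocytes, and models hypertrophic cardiomyopathy; the labels write the genotype as Myh6+/R404Q (R403Q). Empagliflozin blocks the sodium-glucose cotransporter SGLT2. The labels give 16 weeks of diet, whereas the methods give 2 weeks for the mice whose RNA was sequenced.

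NRF2, encoded by Nfe2l2, is a transcription factor that KEAP1 binds in the cytosol and marks for degradation through a cullin-3 ubiquitin ligase. Electrophiles and oxidants modify KEAP1, NRF2 then accumulates, pairs with a small MAF protein and binds antioxidant response elements, while BACH1 competes for the same elements. Nqo1, Gclc, Gclm, Txnrd1 and Srxn1 are established NRF2 targets, whereas Cat, Sod2, Gpx1 and Gpx3 are antioxidant enzymes with wider control. In the heart, mitochondria are a large source of superoxide, and Nox4 adds hydrogen peroxide.

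The members lie on 8 chromosomes of GRCm38, and their counts cover all annotated exons. Nqo1 (ENSMUSG00000003849) is at chr8:107388225-107403206, Gclc (ENSMUSG00000032350) at chr9:77754535-77794485 and Gclm (ENSMUSG00000028124) at chr3:122245557-122270732. Txnrd1 (ENSMUSG00000020250) is at chr10:82833951-82897712, Srxn1 (ENSMUSG00000032802) at chr2:152105516-152111376 and Cat (ENSMUSG00000027187) at chr2:103453849-103485160. Sod2 (ENSMUSG00000006818) is at chr17:13006846-13040063, Gpx1 (ENSMUSG00000063856) at chr9:108338903-108340343, Gpx3 (ENSMUSG00000018339) at chr11:54902453-54910377 and Nox4 (ENSMUSG00000030562) at chr7:87246096-87398710. Gclm overlaps the annotated genes Gm17494 on the opposite strand and Gm6061 on the same strand, and Txnrd1 overlaps Eid3 on its own strand and Gm38560 and Gm47073 on the other, so that reads in the stretches shared on 1 strand are uncertain. The methods give counting on the same strand, and whether the library kit kept the strand is not given in the sources used here. The other 8 members overlap no annotated gene.

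Because 5 members are known NRF2 targets, the stretches around their start sites were searched for the core of the antioxidant response element, TGACNNNGC, on both strands. RefSeq start sites in GRCm38.p6 were available for 9 of the 10 members, each with 250 bases before and 50 bases after the start. The core was present in the windows of 3 members: Gclm, 134 bases before its start, 1 of the 3 Txnrd1 windows, 92 bases before that start, and Srxn1, 28 bases into the transcript. Of all 27025 genes with such windows 14% held the core, and of the other genes in the redox lists described below 15 of 70 did. The sequences are shown 5′ to 3′ on the strand of the gene, with the core in capitals; all 3 cores are read from the opposite strand. The Gclm sequence is chr3:122245307-122245556 (plus strand), the Txnrd1 sequence chr10:82858956-82859205 (plus strand), the Srxn1 sequence chr2:152105542-152105571 (plus strand) and the Nqo1 sequence chr8:107403206-107403455 (minus strand). Nqo1 is shown as a known target whose window held no match, which says only that these letters are absent from this stretch.
Gclm: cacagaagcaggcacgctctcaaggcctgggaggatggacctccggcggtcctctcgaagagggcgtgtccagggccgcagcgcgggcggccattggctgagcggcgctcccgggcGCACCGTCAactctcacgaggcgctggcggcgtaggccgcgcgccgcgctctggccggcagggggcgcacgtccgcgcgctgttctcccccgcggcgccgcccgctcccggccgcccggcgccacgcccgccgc
Txnrd1: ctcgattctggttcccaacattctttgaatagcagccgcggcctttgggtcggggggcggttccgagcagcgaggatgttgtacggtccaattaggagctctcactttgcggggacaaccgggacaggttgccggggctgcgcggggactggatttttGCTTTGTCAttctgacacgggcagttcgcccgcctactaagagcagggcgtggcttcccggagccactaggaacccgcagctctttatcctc
Srxn1: gcagtgggcaGCTAGGTCAgagtgagacac
Nqo1: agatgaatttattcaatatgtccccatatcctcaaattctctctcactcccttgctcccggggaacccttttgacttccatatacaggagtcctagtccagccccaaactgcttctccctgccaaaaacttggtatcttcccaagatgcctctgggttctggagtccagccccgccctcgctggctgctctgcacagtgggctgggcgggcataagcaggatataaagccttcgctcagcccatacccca

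Total counts ran from 23491535 to 43539684 per mouse, and 3 counts stood for 0.0689 to 0.128 CPM (counts relative to the TMM-scaled size of the library), a floor that covers counting error only. The 6 cardiomyocyte markers (Myh6, Tnnt2, Actn2, Ryr2, Pln and Tnni3) were detected in all 21 mice, with summed levels of 70044 to 77086 CPM in WT-CD, 36348 to 70257 CPM in R403Q-CD, 59221 to 68907 CPM in R403Q-EMPA and 71302 to 83852 CPM in WT-EMPA. The mouse R403Q-CD replicate 2 stood apart: its cardiomyocyte sum of 36348 CPM compared with 53470 to 83852 CPM in the other 20, its fibroblast sum of 4525 CPM with 961 to 2490 CPM, and its sum of 4 hypertrophy genes, 21953 CPM, with 1503 to 9346 CPM. It had the highest level of all 21 mice for 5 members and the lowest for Sod2, so the results that it moves most are given with and without it. Mice of both genotypes shared each of the 4 control-diet cages and 2 of the 3 EMPA cages, while the other EMPA cage held 3 WT mice. No cage held both diets, so that diet and cage cannot be told apart. Replicate numbers are names only, and each sample is 1 mouse.

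In WT-CD hearts, Gpx3, which encodes the secreted plasma glutathione peroxidase, had the highest level per length among the members, 128 ± 21 CPM per kb of exon (SD, n = 5). Cat, which encodes catalase, followed at 104 ± 10 CPM per kb, and Sod2, the manganese superoxide dismutase of mitochondria, at 86.3 ± 7.27 CPM per kb. Without division by length Sod2 was the highest of these, at 863 ± 72.8 CPM, beside 272 ± 26.2 CPM for Cat and 233 ± 38.2 CPM for Gpx3. All annotated exons were counted as length, 10008 bases for Sod2, 2613 for Cat and 1813 for Gpx3, so the order depends on the length used. Gpx1, the cytosolic and mitochondrial glutathione peroxidase, was at 57.2 ± 1.95 CPM per kb and Nqo1, a quinone reductase, at 50.5 ± 5.66 CPM per kb. The remaining NRF2 targets formed a lower group whose neighbours lay within their spread of each other. These were Txnrd1 (7.44 ± 0.49 CPM per kb), Gclm (7.18 ± 0.892), Srxn1 (6.14 ± 0.399) and Gclc (5.58 ± 0.211). Nox4 was the lowest member, at 0.414 ± 0.394 CPM per kb, yet every mouse was above the floor of 3 counts.

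**Figure D1:**
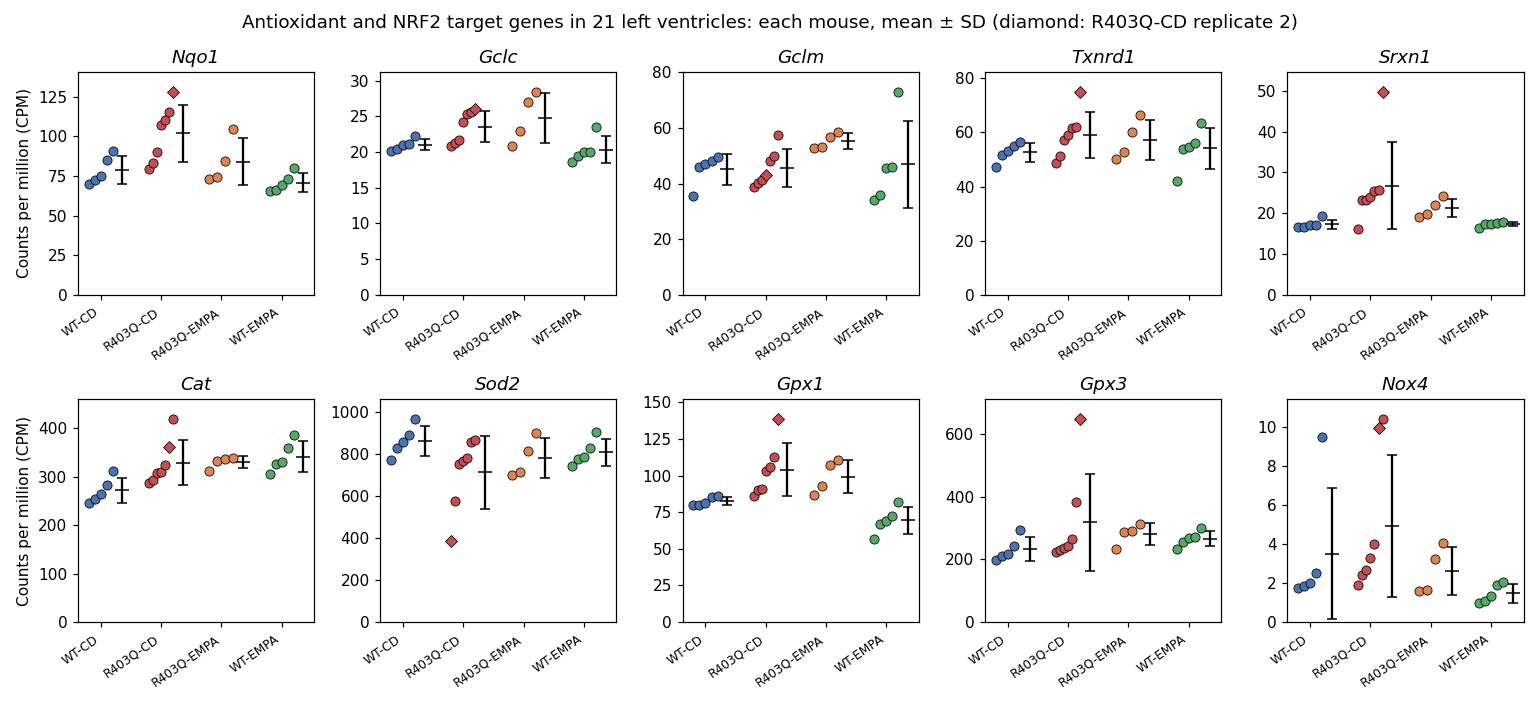
Expression of each member in CPM (y axis, from 0) in the 21 mice by group, 1 point per mouse, with the group mean and SD as the bar at the right of each group and R403Q-CD replicate 2 as a diamond. Gpx1 is higher in every R403Q mouse than in any WT mouse of the same diet, and the diamond is the highest Nqo1, Txnrd1, Srxn1, Gpx1 and Gpx3 value and the lowest Sod2 value.

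The first comparison asked how the members differed between R403Q and wild-type hearts. Averaged over both diets, 4 of 10 members were higher in R403Q hearts by edgeR's quasi-likelihood test with Benjamini-Hochberg adjustment over 17309 genes: Gpx1, Srxn1, Nqo1 and Gclc. In that contrast, which was added after the data had been seen, 10.9% of all genes passed the threshold (an adjusted p under 0.05), and 6.3% passed and were higher. No member was lower past the threshold. The members were chosen with earlier results of these data known, so the shares of all genes give no independent test of them. Within the control diet alone 0 of 10 members passed, beside 1.44% of all genes, and 5 had an unadjusted p under 0.05, all higher (11.8% of all genes). DESeq2 called 3 in the control diet (Nqo1, Srxn1 and Gpx1, beside 5.59% of all genes) and limma on the variance-stabilized values called 0.

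Gpx1, which reduces hydrogen peroxide with glutathione, was the member with the smallest adjusted p over both diets. Its level was 79.9, 85.8, 85.1, 80.1 and 81.2 CPM in the 5 WT-CD mice and 86.1 to 138 CPM (median 103) in the 7 R403Q-CD mice. On the EMPA diet it was 56.9, 66.9, 82, 69.2 and 72.4 CPM in WT-EMPA and 110, 92.6, 107 and 86.7 CPM in R403Q-EMPA. The genotypes did not overlap on either diet, although on the control diet the lowest R403Q mouse (86.1 CPM) lay just above the highest WT mouse (85.8 CPM). Such separation with R403Q higher was seen in 1.12% of all genes on the control diet and 3.35% on the EMPA diet. The log2 difference was 0.33 (SE 0.103, adjusted p = 0.0845, edgeR) on the control diet (0.25, adjusted p = 0.143, without R403Q-CD replicate 2) and 0.52 (SE 0.117, adjusted p = 0.084) on the EMPA diet, and neither passed. Averaged over both diets it was 0.43 (SE 0.0779, adjusted p = 0.00389), and it passed with each of the 21 mice left out in turn.

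Srxn1 encodes sulfiredoxin, which repairs overoxidized peroxiredoxins. It was at 16.7, 16.5, 17, 17 and 19.3 CPM in WT-CD, and at 16.2, 49.7, 24.1, 23.2, 25.4, 25.6 and 23.3 CPM in R403Q-CD. Of the R403Q-CD mice, 1 was the lowest of all 21 mice and 1 was the highest, and the other 5 lay above all WT-CD mice. On the EMPA diet it was 19.8, 21.9, 24.1 and 19.1 CPM in R403Q-EMPA and 17.6, 17.5, 17.4, 17.9 and 16.4 CPM in WT-EMPA, without overlap (3.35% of all genes with R403Q higher). The log2 difference between genotypes was 0.63 (SE 0.171, adjusted p = 0.0587, edgeR) on the control diet. Without R403Q-CD replicate 2 it was smaller, 0.40 (SE 0.0916), and passed the threshold (adjusted p = 0.0306). It was 0.29 (SE 0.194, adjusted p = 0.493) on the EMPA diet, where the SE draws on the spread of all 4 groups, R403Q-CD replicate 2 included. Over both diets it was 0.46 (SE 0.129, adjusted p = 0.0277), and 0.34 (SE 0.068, adjusted p = 0.00373) without that mouse. The last call was lost with cage in the model (adjusted p = 0.0515) and without R403Q-EMPA replicate 2 (0.0508) or replicate 3 (0.0648).

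Nqo1 encodes an enzyme that reduces quinones by a pair of electrons at once and is widely read as an NRF2 marker. It was at 70, 72.1, 90.5, 75 and 84.7 CPM in WT-CD and 79.6 to 128 CPM (median 107) in R403Q-CD. The groups overlapped, and 4 of the 7 R403Q-CD values exceeded the highest WT-CD value (90.5 CPM). On the EMPA diet the levels were 105, 84.4, 72.9 and 74 CPM in R403Q-EMPA and 69.5, 65.5, 79.9, 73 and 66 CPM in WT-EMPA, and these overlapped too. The log2 difference between genotypes was 0.38 (SE 0.114, adjusted p = 0.0785, edgeR) on the control diet (0.31, adjusted p = 0.141, without R403Q-CD replicate 2), 0.25 (SE 0.129, adjusted p = 0.377) on the EMPA diet and 0.31 (SE 0.0859, adjusted p = 0.0264) over both. With a mouse left out, the value on the EMPA diet ran from 0.12 to 0.30. The call over both diets was lost without WT-CD replicate 1 (adjusted p = 0.0526) or R403Q-EMPA replicate 1 (0.0763).

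Gclc and Gclm encode the catalytic and the modifier subunit of glutamate-cysteine ligase, the first and limiting step of glutathione synthesis, and differed in their calls. Gclc was at 21, 22.2, 20.2, 21.2 and 20.5 CPM in WT-CD and 20.9 to 26 CPM (median 24.2) in R403Q-CD, with overlap. On the EMPA diet it was 23, 20.8, 27 and 28.4 CPM in R403Q-EMPA and 23.5, 19.4, 20.1, 20 and 18.6 CPM in WT-EMPA. Its log2 difference over both diets was 0.23 (SE 0.061, adjusted p = 0.0239, edgeR), the smallest of the 4 that passed, and it did not pass without R403Q-EMPA replicate 3 (0.20, adjusted p = 0.067). Gclm differed by 0.12 (SE 0.109, adjusted p = 0.473) over both diets, with a 95% interval of −0.10 to 0.35. It was 0.076 without WT-EMPA replicate 4 and 0.23 without WT-EMPA replicate 1 (adjusted p = 0.0869), and did not pass with any mouse left out. Its levels were 35.5 to 49.6 CPM in WT-CD, 38.6 to 57.5 CPM in R403Q-CD and 52.7 to 58.5 CPM in R403Q-EMPA, and the highest Gclm value of all was 72.8 CPM in WT-EMPA replicate 1. The difference between the subunits was not tested.

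Txnrd1 encodes the cytosolic thioredoxin reductase, which keeps thioredoxin reduced with NADPH. It was at 47.4 to 56.3 CPM in WT-CD, 48.9 to 74.9 CPM in R403Q-CD, 50.1 to 66.5 CPM in R403Q-EMPA and 42 to 63.3 CPM in WT-EMPA, and all groups overlapped. Its log2 difference between genotypes was 0.13 (95% interval −0.03 to 0.29, adjusted p = 0.281, edgeR) over both diets. Gpx3 was at 217, 243, 198, 211 and 294 CPM in WT-CD and 225 to 646 CPM (median 242) in R403Q-CD. The high end was R403Q-CD replicate 2 at 646 CPM, followed by R403Q-CD replicate 5 at 383 CPM. The log2 difference of Gpx3 on the control diet was 0.45 (SE 0.209, adjusted p = 0.222) with replicate 2 and 0.17 (SE 0.125, adjusted p = 0.511) without it. In the EMPA groups Gpx3 was at 232, 287, 312 and 291 CPM in R403Q-EMPA and 234, 257, 272, 270 and 300 CPM in WT-EMPA, with overlap and a log2 difference of 0.07 (95% interval −0.42 to 0.57, adjusted p = 0.911). That interval also draws on the spread of all 4 groups, R403Q-CD replicate 2 included.

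Cat, whose product splits hydrogen peroxide mainly in peroxisomes, was at 312, 246, 283, 265 and 253 CPM in WT-CD and 286 to 418 CPM (median 310) in R403Q-CD. Of the WT-CD mice 4 lay below every R403Q-CD mouse and 1 above their median, and the log2 difference was 0.27 (SE 0.0877, adjusted p = 0.0942, edgeR). In the EMPA groups Cat was at 312 to 339 CPM in R403Q-EMPA and 305 to 387 CPM in WT-EMPA, a log2 difference of −0.05 (95% interval −0.26 to 0.16, adjusted p = 0.838). Sod2, which converts superoxide in mitochondria to hydrogen peroxide, was the only member with a lower estimate in R403Q on both diets, and it did not pass on either (with library size alone the EMPA-diet estimate was 0.0035). It was at 858, 772, 894, 966 and 827 CPM in WT-CD and 388 to 866 CPM (median 769) in R403Q-CD, where replicate 2 (388 CPM) and replicate 5 (578 CPM) were the lowest of all 21 mice. The log2 difference of Sod2 was −0.28 (SE 0.139, adjusted p = 0.26) with R403Q-CD replicate 2 and −0.18 (SE 0.0923, adjusted p = 0.345) without it.

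Nox4, the oxidase that releases hydrogen peroxide without cytosolic activator subunits, varied most between mice of a group. It was at 2, 9.45, 1.76, 1.83 and 2.49 CPM in WT-CD and at 2.66, 9.93, 2.39, 3.29, 10.4, 4.02 and 1.89 CPM in R403Q-CD. WT-CD replicate 2, R403Q-CD replicate 2 and R403Q-CD replicate 5 were far above most of their group. On the EMPA diet no mouse was above 4.07 CPM, with 1.64, 3.24, 4.07 and 1.57 CPM in R403Q-EMPA and 2.08, 1.92, 1.1, 1.32 and 0.982 CPM in WT-EMPA. The log2 difference between genotypes was 0.67 over both diets (95% interval −0.10 to 1.43, adjusted p = 0.233, edgeR), and without WT-CD replicate 2 it was 1.07 (adjusted p = 0.0419). Over the alternatives other than leaving out mice, it ran from 0.39 to 0.999.

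The genotype contrasts of the 2 diets share no mice, and 9 of 10 members had the same sign in both, 8 higher and 1 lower in R403Q, with Cat as the exception, beside 71.1% of all genes with the same sign. With cage in the model Gclm was at −0.018 on the control diet and Gpx3 at −0.024 on the EMPA diet, and with library size alone Cat was at 0.0017 and Sod2 at 0.0035 on the EMPA diet, so that the signs of these 4 are not fixed. The median log2 difference of the 10 members was 0.30 on the control diet and 0.24 on the EMPA diet, beside 0.01 for all genes tested in each. As the members were chosen with earlier results of these data known, these values beside all genes are descriptive only. Between the EMPA groups 0 of 10 members passed (0.0578% of all genes did), and 2 had an unadjusted p under 0.05, Gclc and Gpx1, both higher (8.14% of all genes). DESeq2 called Gpx1 there, beside 1.78% of all genes (adjusted p = 0.0102, with 0.0102 to 0.314 over the alternatives), and limma called 0. When cage was added to the model, 3 members passed on the control diet, beside 6.52% of all genes: Nqo1 (adjusted p = 0.0259), Srxn1 (0.0279) and Gpx1 (0.0417). Over all alternatives other than leaving out mice, the adjusted p on the control diet ran from 0.0259 to 0.121 for Nqo1, from 0.0142 to 0.104 for Srxn1 and from 0.0417 to 0.121 for Gpx1. With cage in the model, Srxn1 no longer passed over both diets (adjusted p = 0.0515, with 0.00865 to 0.0515 over the alternatives), where 5.45% of all genes did.

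**Figure D2:**
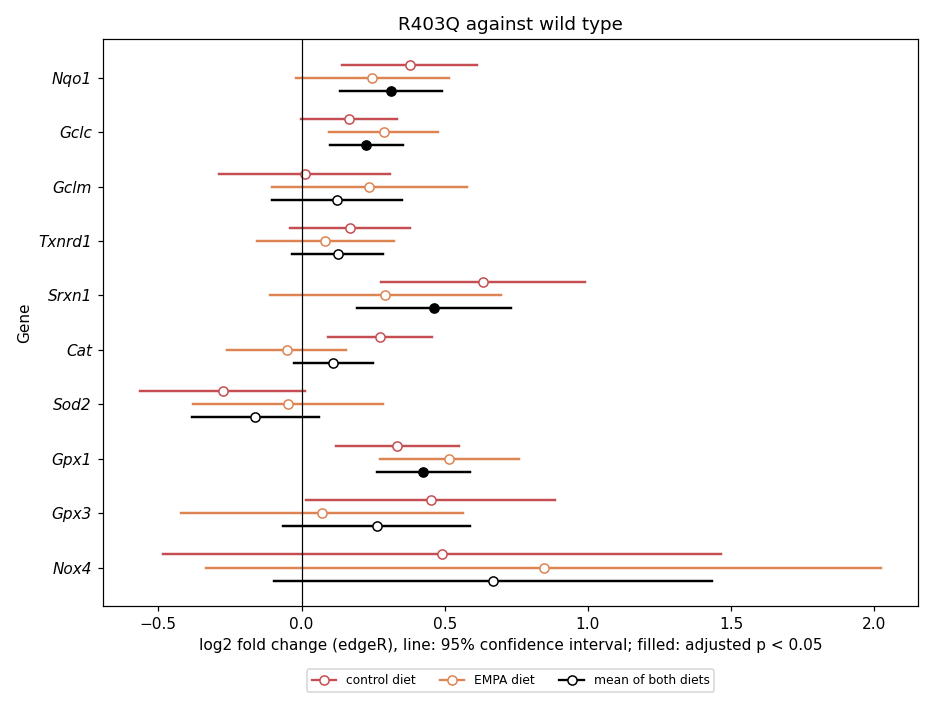
Log2 fold change of each member, R403Q against wild type, on the x axis, with 95% confidence intervals as lines, on the control diet, on the EMPA diet and as the mean of both. Filled points, which passed an adjusted p of 0.05, are the means of both diets for Nqo1 (0.31), Gclc (0.23), Srxn1 (0.46) and Gpx1 (0.43).

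The second comparison asked what the EMPA diet did to the members in R403Q hearts. By edgeR 0 of 10 members passed, beside 0.0116% of all genes, and 1 had an unadjusted p under 0.05 (13.4% of all genes). DESeq2, which called 0.937% of all genes, and limma also called 0 members. That member was Nqo1, for which R403Q-EMPA averaged 84 ± 14.7 CPM (SD, n = 4) and R403Q-CD 102 ± 17.9 CPM (SD, n = 7). Its log2 difference was −0.28 (95% interval −0.53 to −0.03, adjusted p = 0.32). Without R403Q-CD replicate 2, the highest Nqo1 mouse, it was −0.22 (adjusted p = 0.46), and 0 members had an unadjusted p under 0.05. Srxn1 averaged 21.2 ± 2.27 CPM in R403Q-EMPA and 26.8 ± 10.6 CPM in R403Q-CD, a log2 difference of −0.34 (SE 0.182, adjusted p = 0.431), which was −0.11 (SE 0.0971, adjusted p = 0.702) without R403Q-CD replicate 2. Gclm was at 52.7 to 58.5 CPM in R403Q-EMPA and 38.6 to 57.5 CPM in R403Q-CD, a log2 difference of 0.28 (95% interval −0.04 to 0.59, adjusted p = 0.436). For Cat the interval of the difference was −0.19 to 0.20 and for Gclc −0.11 to 0.25, so that larger changes than these lay outside the 95% intervals. Gpx1, at 99.3 ± 11.4 CPM in R403Q-EMPA and 104 ± 18 CPM in R403Q-CD, had a log2 difference of −0.07 (95% interval −0.29 to 0.16, adjusted p = 0.833), which was 0.013 without R403Q-CD replicate 2. Nox4 had the largest estimate of this contrast, −0.90 (SE 0.521, adjusted p = 0.463), which was −0.63 without R403Q-CD replicate 2 and likewise without R403Q-CD replicate 5. Over the alternatives other than leaving out mice, the Nox4 estimate ran from −0.95 to −0.50. Without replicate 2 the estimates of Gpx3 (−0.18 with it, 0.086 without it) and Txnrd1 (0.014 without it) also turned.

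In wild-type hearts 0 of 10 members passed between the diets, beside 0.0289% of all genes, and 3 had an unadjusted p under 0.05 (11% of all genes): Cat, Gpx1 and Nox4. DESeq2, which called 0.737% of all genes, and limma called 0 members here as well. Cat averaged 342 ± 31.6 CPM in WT-EMPA and 272 ± 26.2 CPM in WT-CD (SD, n = 5 each), a log2 difference of 0.33 (SE 0.0942, adjusted p = 0.225, edgeR), with 4 of 5 WT-EMPA mice above every WT-CD mouse. Gpx1 averaged 69.5 ± 9.08 CPM in WT-EMPA and 82.4 ± 2.81 CPM in WT-CD, a log2 difference of −0.25 (SE 0.111, adjusted p = 0.418). For Nox4 the log2 difference was −1.25 (SE 0.535, adjusted p = 0.396), and without WT-CD replicate 2, the single high mouse, it was −0.45 (adjusted p = 0.799). Over the alternatives other than leaving out mice, it ran from −1.28 to −0.57. Whether EMPA acted unequally in R403Q and WT hearts was tested as an interaction, in which 0 of 10 members and 0 of all genes passed by edgeR, DESeq2 and limma. At an unadjusted p under 0.05 it singled out 1 member, Cat (3.28% of all genes), with a log2 difference of −0.33 (SE 0.133, adjusted p = 0.999).

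**Figure D3:**
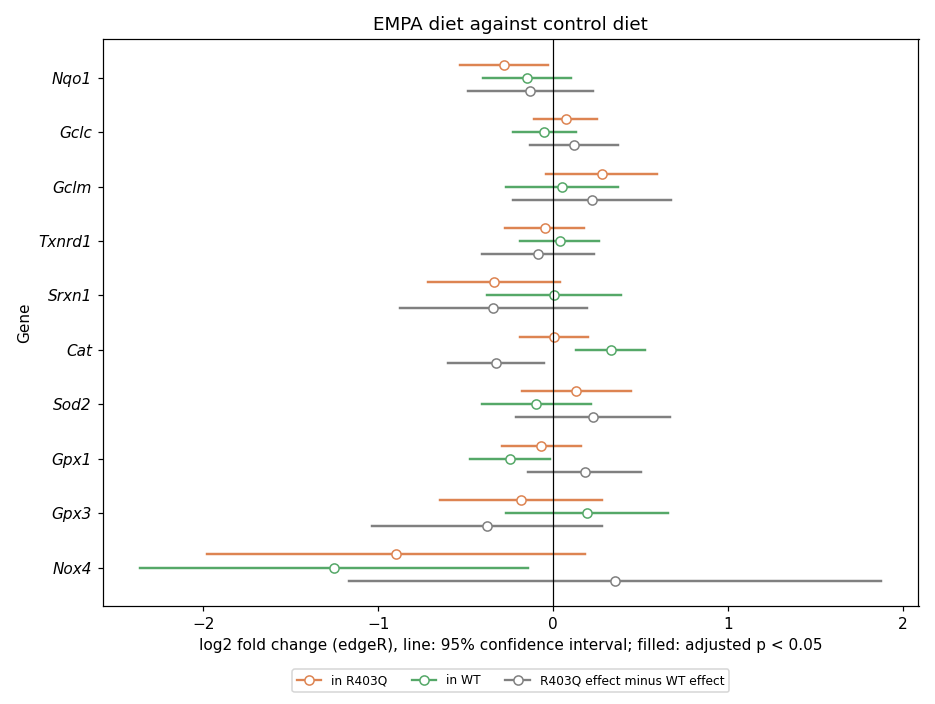
Log2 fold change of each member, EMPA diet against control diet, on the x axis, with 95% confidence intervals as lines, in R403Q mice, in WT mice and as the R403Q effect minus the WT effect. No point is filled, since none passed an adjusted p of 0.05, and the widest intervals are those of Nox4.

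Other genes of the same pathways were read from 7 lists with 82 tested genes, which were also chosen with earlier results of these data known. Over both diets 16 of the 82 were higher and 1 was lower in R403Q past the threshold (adjusted p under 0.05, edgeR), beside 6.3% and 4.58% of all genes, and the median log2 difference was 0.06, beside 0.01 for all genes. On the control diet 4 were higher and 0 lower (Gsta1, Gsta4, Ftl1 and Rac2), beside 0.884% of all genes that were higher. With 1 mouse left out, Ftl1 passed there in 17 of 21 fits, Gsta4 in 15, Gsta1 in 8 and Rac2 in 6, and 1 gene was higher when the 3 groups that the study analysed were fitted alone. In the EMPA-fed mice 1 was higher (Ftl1) and 0 lower, beside 0.0347%. The EMPA diet gave 0 calls among the 82 genes in either genotype by edgeR, DESeq2 and limma, with 5 at an unadjusted p under 0.05 in R403Q (13.4% of all genes) and 13 in WT (11% of all genes) by edgeR. These were 3 higher and 2 lower in R403Q, and 3 higher and 10 lower in WT. DESeq2 called 8 higher and 3 lower on the control diet (5.59% of all genes in either direction), 6 higher on the EMPA diet (1.78%), and 19 higher and 5 lower over both diets (16%), while limma gave 4 and 0, 1 and 0, and 15 and 2. Of the 17 calls over both diets 12 passed with each of the 21 mice left out in turn, and 11 passed with cage in the model (5.45% of all genes). The 6 that did not pass with cage in the model were Cul3, Gpx4 (adjusted p = 0.0661), Mgst1 (0.0813), Prdx1 (0.0577), Cyba (0.0894) and Rac2 (0.0552). With cage in the model 6 were higher and 3 lower on the control diet, and 0 passed on the EMPA diet (0% of all genes).

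Of the 10 genes that control NRF2, only Cul3, the scaffold of the ligase that degrades NRF2, passed over both diets, and it was lower by −0.18 (SE 0.0542, adjusted p = 0.0422, edgeR). It passed in 8 of 21 fits with 1 mouse left out and did not pass with cage in the model (−0.18, adjusted p = 0.0586), with no filter on low counts or with library size alone. Nfe2l2 itself differed by 0.02 (SE 0.0362, adjusted p = 0.752), at 78.8 to 85.3 CPM in WT-CD and 77.7 to 86.7 CPM in R403Q-CD. Keap1 differed by −0.08 (adjusted p = 0.253) and Bach1 by −0.07 (adjusted p = 0.631). Per length, the highest gene of this list in WT-CD was Sqstm1, a selective autophagy receptor that binds KEAP1, at 225 ± 18 CPM per kb (SD, n = 5).

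Among 22 other NRF2 targets, 6 were higher and 0 lower in R403Q over both diets, beside 6.3% and 4.58% of all genes. Ftl1, the ferritin light chain, was at 116 to 143 CPM in WT-CD, 147 to 174 CPM in R403Q-CD, 154 to 194 CPM in R403Q-EMPA and 111 to 129 CPM in WT-EMPA, so that the genotypes did not overlap on either diet (with R403Q higher, 1.12% of all genes on the control diet and 3.35% on the EMPA diet). Its log2 difference was 0.47 (SE 0.0517, adjusted p = 3.7e-05, edgeR), and it passed with each mouse left out in turn. Gsta4, a glutathione transferase for lipid aldehydes, differed by 0.34 (adjusted p = 0.00672), Osgin1 by 0.48 (adjusted p = 0.00982), Blvrb, a biliverdin reductase, by 0.27 (adjusted p = 0.0105) and Tkt, the transketolase of the pentose phosphate pathway, by 0.20 (adjusted p = 0.00464). Gsta1 differed by 0.90 (adjusted p = 0.0144), at no more than 1.08 CPM in any mouse. Gsta1 and Ftl1 have near-identical copies, and reads that aligned to several places were not counted, so their values are uncertain. Hmox1, which encodes the inducible heme oxygenase, did not pass (0.61, SE 0.201, adjusted p = 0.0533): it was at 40.1 to 83.8 CPM in R403Q-EMPA and 19 to 63.9 CPM in WT-EMPA, where the highest was again WT-EMPA replicate 1.

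The glutathione list held 15 genes, of which 3 were higher over both diets (6.3% of all genes): Gpx4, the peroxidase of membrane lipids (0.26, adjusted p = 0.0136), Glrx (0.24, adjusted p = 0.0419) and Mgst1 (0.45, adjusted p = 0.0226). Glrx passed in 11 of 21 fits with 1 mouse left out (adjusted p up to 0.118) and Mgst1 in 20. Gsr, the glutathione reductase, differed by 0.02 (adjusted p = 0.85). Of 14 thioredoxin and peroxiredoxin genes 3 were higher (6.3% of all genes): Txn1, the cytosolic thioredoxin (0.37, adjusted p = 0.0059), Prdx1 (0.29, adjusted p = 0.00928) and Prdx4 (0.33, adjusted p = 0.0122). Yet 9 of the 14 had negative estimates, 2 of them at an unadjusted p under 0.05, and the median log2 difference of the list was −0.04. Prdx1 was at 280 to 332 CPM in WT-CD and 351 to 435 CPM in R403Q-CD, without overlap (1.12% of all genes), whereas the genotypes overlapped on the EMPA diet, at 255 to 355 CPM in WT-EMPA and 331 to 438 CPM in R403Q-EMPA. Txnip, an inhibitor of thioredoxin, differed by −0.04 (adjusted p = 0.751). None of 3 genes of the superoxide dismutase list passed (Sod1 at 0.07, adjusted p = 0.545), and neither did any of 7 genes of the NADPH supply list; 4 of the latter had an unadjusted p under 0.05 (29% of all genes), 2 higher and 2 lower.

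Of 11 other NADPH oxidase genes 4 were higher in R403Q over both diets (6.3% of all genes), and these encode parts of the phagocyte oxidase: Cybb (0.37, adjusted p = 0.0266), Cyba (0.22, adjusted p = 0.0463), Ncf1 (0.56, adjusted p = 0.0124) and Rac2 (0.55, adjusted p = 0.00937). With 1 mouse left out, Cyba passed in 6 and Cybb in 17 of 21 fits, and Ncf1 and Rac2 in all 21, whereas Cyba and Rac2 did not pass with cage in the model. Macrophage markers moved with them: 4 of 5 were higher past the threshold, and their sum was 191 to 261 CPM in R403Q-CD, 205 to 272 CPM in R403Q-EMPA, 154 to 197 CPM in WT-CD and 152 to 201 CPM in WT-EMPA. The part of macrophages in these values was not tested, and in whole tissue a change in the number of cells of a type and a change in RNA per cell cannot be told apart.

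**Figure D4:**
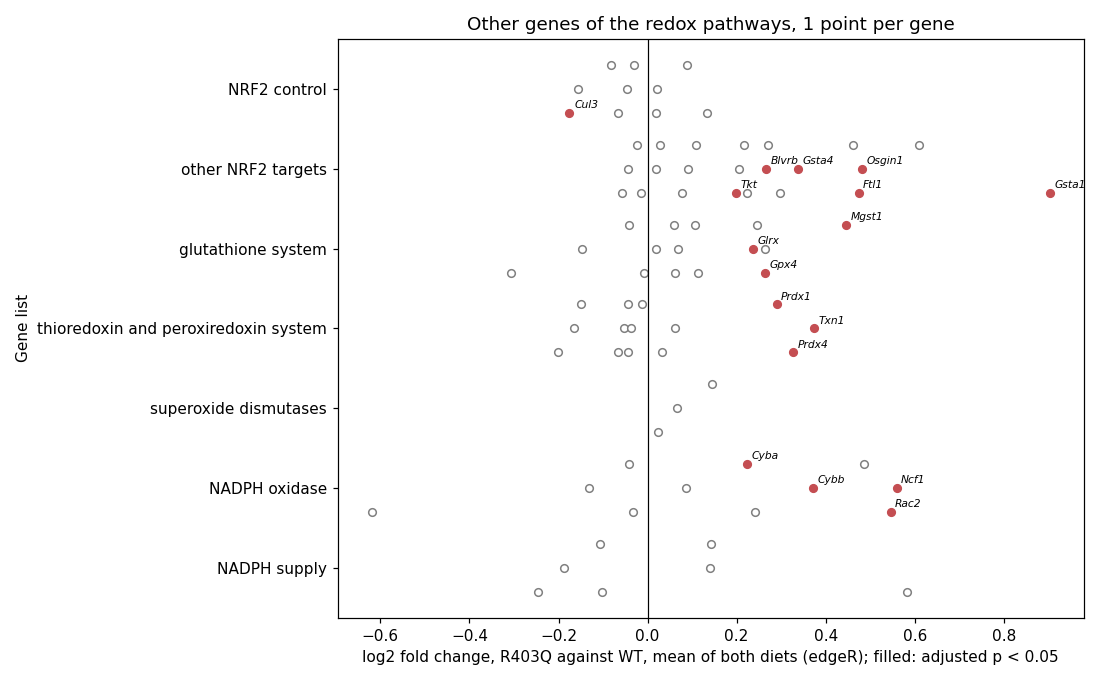
Log2 fold change, R403Q against WT as the mean of both diets (x axis), for 82 genes in 7 lists (y axis), 1 point per gene; red filled points passed an adjusted p of 0.05 and are named. The 16 named points right of 0 lie in 4 lists, and Cul3 is the single named point left of 0.

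Cardiomyocyte and stromal markers also differed between the genotypes, and their part in the member values was not tested. Over both diets 0 of 6 cardiomyocyte markers were higher and 1 was lower past the threshold, and 2 of 5 fibroblast markers were higher and 0 lower, beside 6.3% higher and 4.58% lower of all genes. The lowest and second lowest cardiomyocyte sums were those of R403Q-CD replicate 2 (36348 CPM) and replicate 5 (53470 CPM), which were also the lowest and second lowest mice for Sod2 and the highest and second highest for Gpx3. Without R403Q-CD replicate 2, Gpx1 (0.38, SE 0.0629, adjusted p = 0.00114), Srxn1 (0.34, SE 0.068, adjusted p = 0.00373), Nqo1 (0.27, SE 0.0783, adjusted p = 0.0268) and Gclc (0.21, SE 0.0609, adjusted p = 0.0304) still passed over both diets. The sum of the atrial markers was 608 CPM in R403Q-CD replicate 2 and 2.12 to 260 CPM in the other 20 mice, with Sln at 0 in 1 mouse. All 3 tested atrial markers had lower estimates at an unadjusted p under 0.05 (13.4% of all genes in either direction) in R403Q-EMPA than in R403Q-CD (median log2 difference −3.40), 0 passed by edgeR, DESeq2 and limma, and their part in the member values was not tested. Adipocyte marker sums were 0.78 to 15.3 CPM, with Lep at 0 in 5 mice. Red cell marker sums were 706 to 1717 CPM on the control diet and 1214 to 2660 CPM on the EMPA diet. At an unadjusted p under 0.05, 5 of 5 were higher with EMPA in R403Q (13.4% of all genes) and 4 of 5 in WT (11%). The median log2 difference of these markers was 0.63 in each genotype. DESeq2 called 2 of them in R403Q (0.937% of all genes) and 1 in WT (0.737%), while edgeR and limma called 0. Of 13 clock genes, 6 were lower and 2 higher at an unadjusted p under 0.05 in each genotype on the EMPA diet (13.4% of all genes in R403Q and 11% in WT). By edgeR and limma 0 of them passed, and by DESeq2 1 did, in R403Q (0.937% of all genes). Clock sums were 882 to 1135 CPM in R403Q-CD, 695 to 887 CPM in R403Q-EMPA, 982 to 1200 CPM in WT-CD and 689 to 1093 CPM in WT-EMPA. All 5 smooth muscle and pericyte markers had negative estimates in both EMPA contrasts, 2 of them at an unadjusted p under 0.05 in R403Q (13.4% of all genes) and 0 in WT (11% of all genes), while 0 passed by edgeR, DESeq2 and limma. The part of these genes in the member values was not tested.

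**Figure D5:**
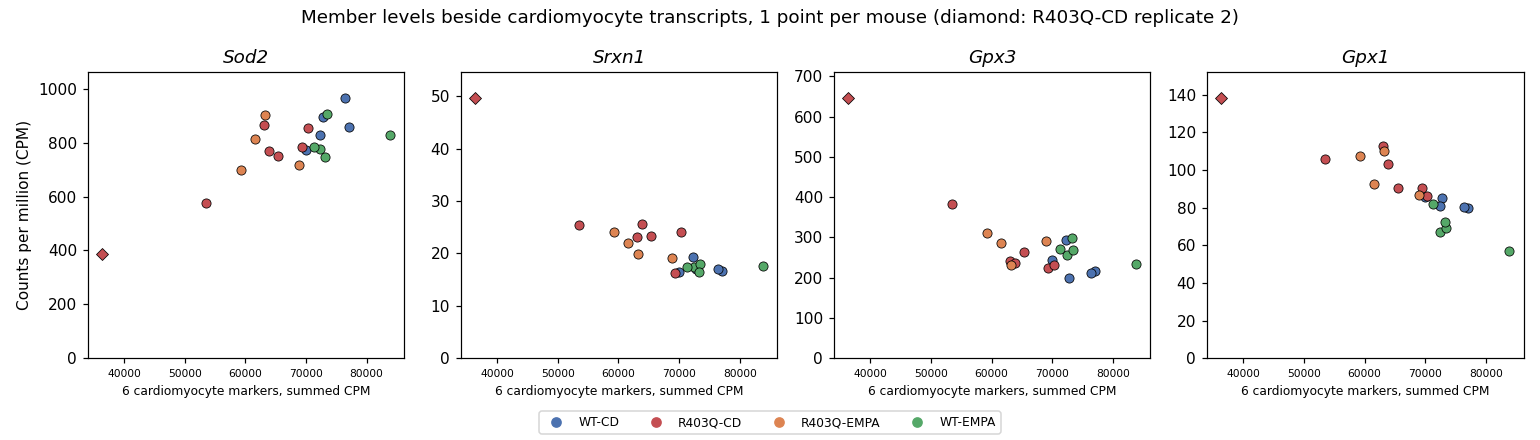
Level of Sod2, Srxn1, Gpx3 and Gpx1 in CPM (y axis, from 0) against the summed CPM of 6 cardiomyocyte markers (x axis), 1 point per mouse, coloured by group, with R403Q-CD replicate 2 as a diamond. The diamond lies alone at 36348 CPM of markers, with the lowest Sod2 and the highest Srxn1, Gpx3 and Gpx1 values.

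The genes whose levels moved most like each member were found by the Pearson correlation of log2 CPM over the 21 mice after the mean of each group was subtracted. These values describe mice that share cages and libraries of unequal makeup, and no test was made. For Sod2 the closest were Slc25a11 (0.98), Immt (0.98) and Ndufs1 (0.98), genes of mitochondrial transport, cristae and complex I, and without R403Q-CD replicate 2 these values were 0.95, 0.95 and 0.95. For Gclm the closest was Sqstm1 (0.89, and 0.91 without that mouse), and for Nox4 it was Fbln5 (0.91 and 0.91), a matrix gene. For Gpx3 it was Cd44 (0.95 and 0.85) and for Srxn1 it was Bcam (0.93 and 0.75), so that the likeness of Srxn1 leant on that mouse. The closest genes to the others were Armcx3 for Nqo1 (0.89), Dhx33 for Gclc (0.86), Atp13a2 for Txnrd1 (0.86), Nde1 for Cat (0.86) and Tmem219 for Gpx1 (0.89).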

How the data were processed

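The authors extracted RNA from frozen left ventricle, sequenced polyadenylated RNA as read pairs, aligned them to mm10 with STAR 2.6.0c and, with featureCounts (Subread 1.6.2), made the deposited counts, not normalized, of uniquely aligned pairs per Ensembl gene without mitochondrial genes. The deposited log2 values are variance-stabilized counts from DESeq2 1.32.0. Groups came from the labels. Counts were fitted for all 21 mice in 1 model with 4 groups by edgeR 4.0.16 in R 4.3.3 (filterByExpr with a minimum count of 10, TMM, quasi-likelihood F test, Benjamini-Hochberg over 17309 genes), which was also tested on simulated data. Symbols were matched through GENCODE for 55190 of 55450 genes. Named genes were the members, key genes of the lists, list genes past the threshold in any contrast (the added one included), the highest gene per length of a list, and the closest genes by correlation; of the last 2 kinds not all are printed. A gene of 1 list is not reported here. The members and lists were chosen with earlier results of these data known. The alternatives were DESeq2 1.42.0, limma 3.58.1 on the deposited values, no filter, library size alone, the 3 groups that the study analysed, cage as a block, and each mouse left out. The contrast over both diets was the 1 alternative added after the data were seen. Totals of 23491535 to 43539684 counts set the precision.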

Additional observations from a re-analysis of the deposited data

Results flagged for a closer look

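In 5 of 40 sets of values (10 members in 4 groups) 1 mouse lay far from the rest of its group by Dixon's test, which chance does in about 1 in 20 groups. In WT-CD, Gclm was low in replicate 2 (35.5 CPM), Srxn1 was high in replicate 5 (19.3 CPM) and Nox4 was high in replicate 2 (9.45 CPM). In R403Q-CD, Srxn1 (49.7 CPM) and Gpx3 (646 CPM) were high in replicate 2, the mouse with the lowest cardiomyocyte marker sum (36348 CPM).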

How the results depend on the processing

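The counts of members past the threshold depended on the settings for the genotype contrasts. For R403Q-CD against WT-CD the 0 members became 3 with DESeq2, 3 with cage as a block and 1 with library size alone (Cat, 0.34, adjusted p = 0.0483, with 0.0483 to 0.159 over the alternatives), and 0 to 3 with a mouse left out, 3 without R403Q-CD replicate 3 and 1 (Srxn1) without R403Q-CD replicate 1 or 2. The 250 genes called there became 971 with DESeq2, 1128 with the cage block and 98 with the 3 groups of the study, and ran from 31 (without WT-CD replicate 3) to 1045 (without R403Q-CD replicate 3). For R403Q-EMPA against WT-EMPA DESeq2 called 1 member, and 0 to 1 passed with a mouse left out (1 without WT-EMPA replicate 3); the 10 genes became 297 with DESeq2 and 0 with the cage block, and 1 to 64 with a mouse left out. Over both diets 2 to 5 members passed with a mouse left out, Nqo1 and Srxn1 each in 19 of 21 fits, Gclc in 20 and Nox4 in 1. Nqo1 was lost without WT-CD replicate 1 (0.29, adjusted p = 0.0526) and R403Q-EMPA replicate 1 (0.25, 0.0763), Srxn1 without R403Q-EMPA replicate 2 (0.45, 0.0508) and replicate 3 (0.42, 0.0648), and Gclc without R403Q-EMPA replicate 3 (0.20, 0.067). There the 1883 genes became 944 with the cage block and 961 to 2764 with a mouse left out. For R403Q-EMPA against R403Q-CD 2 genes became 145 with DESeq2, 5 with library size alone and 0 with the 3 groups, and 0 to 12 with a mouse left out. For WT-EMPA against WT-CD 5 genes became 114 with DESeq2 and 0 with library size alone, and 0 to 7 with a mouse left out. No member passed in either EMPA contrast or the interaction under any setting run. The cause of these shifts was not tested.

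Estimates near 0 changed sign. Library size alone gave Cat −0.020 for R403Q-EMPA against R403Q-CD, Srxn1 −0.0056 for WT-EMPA against WT-CD, and Cat 0.0017 and Sod2 0.0035 for R403Q-EMPA against WT-EMPA; no filter gave Srxn1 −0.00056 for WT-EMPA against WT-CD. The cage block gave Gclm −0.018 for R403Q-CD against WT-CD and Gpx3 −0.024 for R403Q-EMPA against WT-EMPA. With a mouse left out, R403Q-EMPA against R403Q-CD ran from −0.026 to 0.072 for Cat, −0.12 to 0.013 for Gpx1, −0.25 to 0.086 for Gpx3 and −0.13 to 0.014 for Txnrd1. R403Q-CD against WT-CD ran from −0.065 to 0.048 for Gclm, and WT-EMPA against WT-CD from −0.16 to 0.15 for Gclm, −0.011 to 0.047 for Srxn1 and −0.025 to 0.12 for Txnrd1. The interaction of Nox4 ran from −0.45 to 0.63. Replicate numbers pair no mice in the labels. Genotypes were compared within cages by the cage block above, which on the EMPA diet rests on 2 WT-EMPA mice with R403Q cage mates, whereas diets could not be, since each cage held a single diet. The floor was set at 3 counts, which all members exceeded in every mouse.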
